A study of Mus musculus with 12 samples.

Results

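Genomic imprinting leaves a small set of mammalian genes active from only the maternal or only the paternal copy, and many of them set the pace of growth. Paternally expressed genes of this set often promote growth before birth and maternally expressed ones often restrain it, and several stay on in adult stem cells, where they have been tied to the choice between rest and division. The 9 imprinted growth control genes described here are Dlk1, Grb10, Plagl1, Peg3, Ndn, Mest, Nnat, Meg3 and H19. Their probe sets, the short-oligonucleotide groups that each report 1 intensity, were taken where the platform annotation gave exactly 1 gene symbol and it was one of these names. That rule found 34 of the 45037 probe sets, for 8 of the 9 genes, out of 18193 genes with a probe set of their own. The single H19 probe set also carries the name Mir675, the microRNA gene inside H19, so it was not counted and its values are given separately.

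RNA came from sorted neural stem cells of male C57B6J mice, taken from the adult subventricular zone, the germinal layer beside the lateral ventricle. All groups share sex, strain and tissue. The 3 groups were quiescent stem cells, quiescent stem cells 48 h after irradiation, and activated stem cells, here called quiescent, irradiated and activated. Affymetrix MOE 430 2.0 arrays were hybridised with amplified RNA of 12 samples, and 10 arrays with values were analysed: quiescent replicates 1, 2 and 4, irradiated replicates 1 to 4 and activated replicates 1 to 3. The sources used here give no radiation dose, sorting marker, exact age or number of mice behind a sample. They do not state that replicates are separate animals, so a p-value speaks only to the spread among these arrays, part of which may be technical. Precision throughout is limited by how few arrays there are. An array reads RNA from both parental copies together, so imprinting itself was not measured.

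Intensities are the deposited linear values. Across the table they ran from 3 to 34883, and 56.6% to 59.2% of probe sets on each array lay at or below 10, which is treated here as the lower limit. A value there is background and not a level. The 75th percentile of an array lay between 83 and 104. Astroglial and quiescent stem cell markers (10 of 10 measured) summed to 121062 to 129297 on quiescent arrays, 116575 to 129923 on irradiated arrays and 31258 to 45826 on activated arrays. The 7 measured markers of activated stem cells and progenitors summed to 1701 to 3262, 753 to 2768 and 43093 to 44342, and the 7 neuroblast markers to 337 to 1898, 210 to 1238 and 17962 to 23502, in the same order. The arrays also held RNA of other cell types of the region. The sum of 6 oligodendrocyte markers was 19549 to 27144 on quiescent, 16309 to 24567 on irradiated and 1734 to 5132 on activated arrays. Mature neuron markers (7 measured, Slc17a7 at the lower limit on all arrays) summed to 13831 on quiescent replicate 1 and to between 325 and 4001 on the other arrays. Of the choroid plexus list (6 measured), Ttr alone read 9992 to 19809 on quiescent and irradiated arrays and 6 on activated arrays. Kl, Clic6 and Kcnj13 were at most 34 except on irradiated replicate 2 (238, 61 and 135), and Folr1 and Aqp1 were at the lower limit throughout. The 7 pericyte and fibroblast markers summed to 1789 to 8006 on quiescent and irradiated arrays and to 397 to 790 on activated arrays. Pdgfrb alone read 698 to 6802 on the former and 63 to 153 on the latter. Lum was at the lower limit throughout, and Kcnj8 was at most 8 except for 145 on quiescent replicate 1. Rgs5, Col1a2 and Acta2 overlapped between activated and other arrays. In sorted pools, fewer cells of a type and less RNA per cell cannot be told apart.

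Among the imprinted genes, 1 rose in activated cells and none was called after irradiation. Grb10, which encodes an adaptor that dampens signalling from the insulin and IGF1 receptors, was at or near the lower limit in both quiescent groups and read 246 to 808 on activated arrays. Mest and Peg3 were also higher on every activated array than on every quiescent array, but their differences did not pass the test. Plagl1, Ndn and Nnat were read in all 3 states with overlapping groups, while Meg3 was patchy on most probe sets and Dlk1 was mostly at the lower limit. Differences are given as log2(intensity + 16) units ± SE, fitted with limma, with Benjamini-Hochberg adjustment over all 18193 genes, each represented by its probe set of highest mean. This scale understates the change of a gene that is near the lower limit in 1 group. The 3 groups share 1 estimate of the spread per gene. Values at the lower limit hardly vary, so the SE and p-value of such a gene can be too small.

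By this test, at an adjusted p under 0.05, 1 of the 8 genes was called between activated and quiescent cells, where 6.02% of all genes were called. None of the 8 was called between irradiated and quiescent cells, where 0.0110% of all genes were (2 genes, with 723 at an unadjusted p under 0.05). Between activated and irradiated cells 1 of the 8 was called, against 7.10% of all genes. The median log2 difference over the 8 genes was 0.13, 0.06 and 0.87 in these comparisons, and 0.0 over all genes in each. All genes include those at the lower limit on every array, which can hardly differ or be called. None of the 8 was there on every array, and 6 were above 100 on 3 or more arrays. Shares and medians over all genes, here and below, are therefore not matched for level. Over single probe sets, 2 of 34 were called in activated against quiescent cells (4.43% of all probe sets), none in irradiated against quiescent cells (0.0155%) and 2 in activated against irradiated cells (5.14%). All of these calls belonged to Grb10. The 3 comparisons share arrays and are given side by side.

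**Figure D1:**
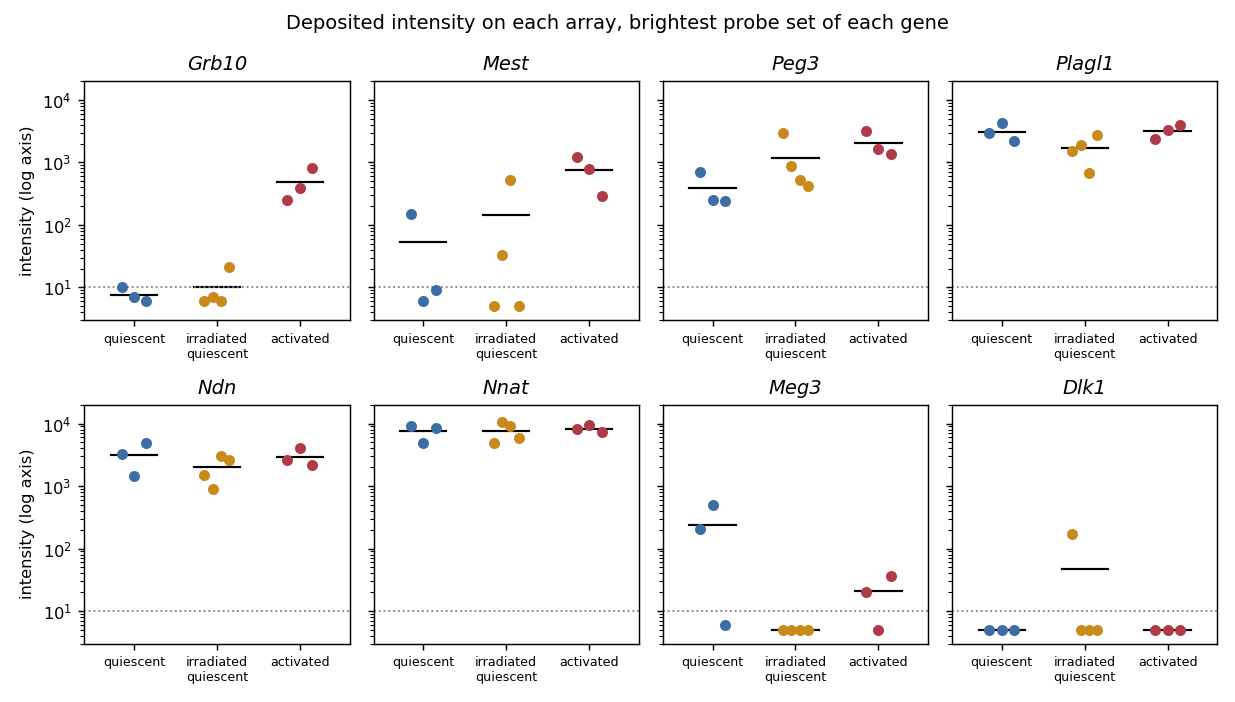
Deposited intensity on each of the 10 arrays (points) for the brightest probe set of 8 imprinted genes, on a log axis, with the group mean as a black bar and the lower limit of 10 as a dotted line. Grb10 reads 246 to 808 on activated arrays and at most 21 on the others, whereas the groups overlap for Plagl1, Ndn and Nnat.

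**Figure D2:**
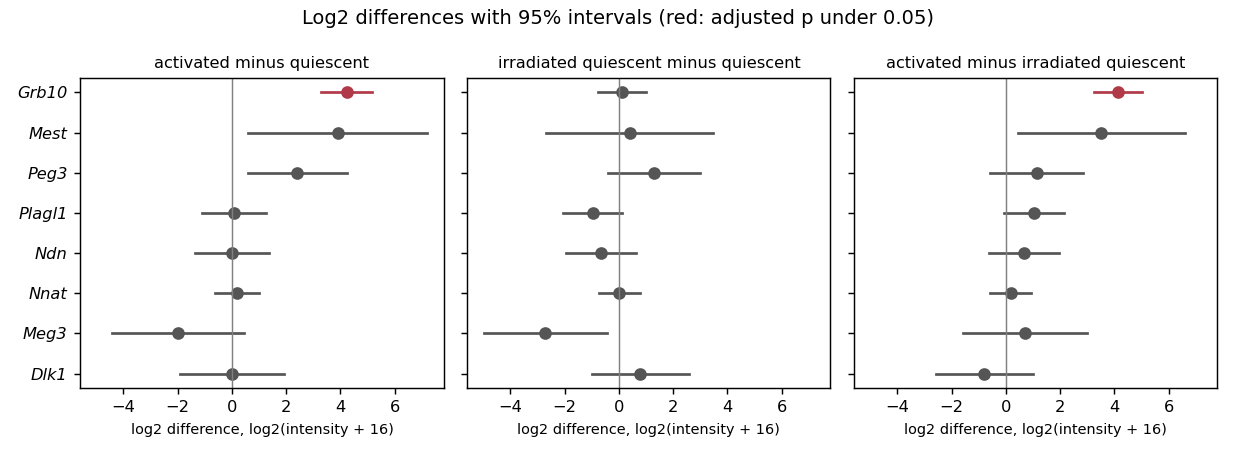
Log2 differences on the log2(intensity + 16) scale with their 95% intervals from limma for each gene (vertical axis) in the 3 comparisons, red where the adjusted p is under 0.05. Grb10 differs by 4.23 and 4.13 in the comparisons with activated cells, and no gene is called between irradiated and quiescent cells.

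Of the signalling genes, Grb10 is maternally expressed in most tissues and paternally expressed in neurons, where transcription starts at other promoters. Its probe set 1425458_a_at read 10, 7 and 6 on quiescent arrays, 6, 7, 6 and 21 on irradiated arrays, and 246, 385 and 808 on activated arrays. Every activated array lay above every array of the other groups, which overlapped each other. The mean intensity was 479.7 ± 293 in activated cells (SD, n = 3), against 7.67 ± 2.08 in quiescent cells (SD, n = 3). The log2 difference was 4.23 ± 0.41 between activated and quiescent cells (adjusted p = 9.87e-04) and 4.13 ± 0.38 between activated and irradiated cells (adjusted p = 7.12e-04). Irradiated and quiescent cells differed by 0.10 ± 0.38, with a 95% interval from -0.78 to 0.99.

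A second Grb10 probe set, 1425457_a_at, read 5 on each quiescent array, 35, 6, 5 and 5 on irradiated arrays and 172, 113 and 668 on activated arrays. It too separated activated cells from both other groups, with a log2 difference of 3.60 ± 0.63 from quiescent cells (adjusted p = 0.0197 over all probe sets) and 3.27 ± 0.59 from irradiated cells (adjusted p = 0.0202). Its call against quiescent cells was lost without any 1 of the 3 quiescent replicates, and its call against irradiated cells without irradiated replicate 2, 3 or 4. The third probe set, 1430164_a_at, stayed between 6 and 7 except for 19 on activated replicate 2, so most of its values were background. Probe sets marked _a, _s or _x may be matched by several transcripts, of the same gene or of others.

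The progenitor and neuroblast marker sums given above were high on the same 3 arrays as Grb10. Grb10 read 246, 385 and 808 on activated replicates 1, 2 and 3. The progenitor sums there were 43093, 44342 and 43463, and the neuroblast sums 20048, 23502 and 17962, lowest where Grb10 was highest. Activated replicate 3, with the highest Grb10 reading, also had the highest sum of 6 microglia markers, at 2969 against 30 to 755 on the quiescent and irradiated arrays, and 3 of these markers were at the lower limit on all arrays. The Grb10 call against quiescent cells was kept without that array, and adjusted p lay between 6.32e-04 and 0.00639 whichever array was left out. The part of the progenitor and neuroblast sums in the Grb10 result was not tested.

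RefSeq lists promoters at 2 Grb10 start sites, and both are shown because Grb10 is the gene that changed and because its start site is known to differ between tissues. Each window runs from 250 bases before to 50 bases after the start, on the minus strand of GRCm38.p6, with every CpG, the dinucleotide that carries imprinting methylation, in capitals. The upstream window is chr11:12037371-12037670 and the downstream one chr11:12027922-12028221.
Grb10 upstream: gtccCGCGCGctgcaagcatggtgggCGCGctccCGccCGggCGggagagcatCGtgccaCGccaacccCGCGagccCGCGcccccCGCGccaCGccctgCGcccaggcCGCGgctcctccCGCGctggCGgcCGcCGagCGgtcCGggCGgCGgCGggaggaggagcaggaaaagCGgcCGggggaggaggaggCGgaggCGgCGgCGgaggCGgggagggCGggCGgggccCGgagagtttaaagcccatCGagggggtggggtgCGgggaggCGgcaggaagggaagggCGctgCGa
Grb10 downstream: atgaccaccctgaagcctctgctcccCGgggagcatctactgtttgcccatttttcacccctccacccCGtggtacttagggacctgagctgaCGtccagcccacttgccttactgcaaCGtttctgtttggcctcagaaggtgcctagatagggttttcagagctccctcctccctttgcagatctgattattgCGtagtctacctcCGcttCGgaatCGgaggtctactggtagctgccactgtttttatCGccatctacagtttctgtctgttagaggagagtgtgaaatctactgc
The upstream window holds 45 CpGs, more than 98.1% of the 32851 promoters in the table, and the downstream window holds 9, more than 54.2%. The arrays do not tell which start site the Grb10 signal came from, and methylation was not measured.

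Dlk1 encodes a transmembrane and secreted relative of the Notch ligands that has been described as a niche signal for subventricular stem cells. Probe set 1449939_s_at read 170 on irradiated replicate 1 and 5 on each of the other 9 arrays. Probe set 1442724_at read 36 on irradiated replicate 2 and 5 elsewhere. The single array that rose above the limit thus differed between these probe sets. The log2 difference between irradiated and quiescent cells was 0.79 ± 0.76 (adjusted p = 0.965), and no level of Dlk1 in quiescent or activated cells could be read.

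The transcription regulators and growth suppressors were present in all 3 states. Plagl1 encodes the zinc finger protein ZAC1, which can arrest the cell cycle and regulates other imprinted genes. Its probe set 1426208_x_at read 2900, 4209 and 2168 on quiescent arrays, 1497, 1888, 669 and 2723 on irradiated arrays and 2386, 3259 and 3920 on activated arrays. Irradiated arrays gave the lowest values, yet they overlapped both other groups. The log2 difference of irradiated from quiescent cells was -0.97 ± 0.47 (95% interval -2.08 to 0.13, adjusted p = 0.965), and that of activated from irradiated cells was 1.04 ± 0.47 (adjusted p = 0.332). Activated and quiescent cells differed by 0.07 ± 0.51 (95% interval -1.12 to 1.25). The mean intensities were 3092 ± 1034 (SD, n = 3), 1694 ± 854 (SD, n = 4) and 3188 ± 769 (SD, n = 3) in quiescent, irradiated and activated cells.

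The other Plagl1 probe sets were dimmer. Probe set 1450533_a_at read 143, 106 and 90 in quiescent cells, 44, 5, 151 and 201 in irradiated cells and 130, 205 and 105 in activated cells. Probe set 1438588_at ranged from 11 to 81 over all arrays. Groups overlapped for both, and on 1438588_at the irradiated cells were higher than quiescent cells by 0.67 ± 0.46, the opposite direction to the brightest probe set.

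Peg3 encodes a large zinc finger protein, also called PW1, that has been described as a marker of stem cells in several adult tissues. Its probe set 1417356_at read 690, 247 and 241 on quiescent arrays, 2927, 888, 519 and 417 on irradiated arrays and 3138, 1642 and 1368 on activated arrays. All activated arrays exceeded all quiescent arrays, and the irradiated arrays overlapped both groups. The mean intensity was 393 ± 258 in quiescent (SD, n = 3), 1188 ± 1177 in irradiated (SD, n = 4) and 2049 ± 953 in activated cells (SD, n = 3). The difference of 2.41 ± 0.78 between activated and quiescent cells did not pass the test (95% interval 0.59 to 4.24, adjusted p = 0.158). Irradiated cells differed from quiescent cells by 1.29 ± 0.73 (adjusted p = 0.965) and activated from irradiated cells by 1.13 ± 0.73 (adjusted p = 0.552).

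Peg3 probe sets disagreed on the order of the states. On 1433924_at the values were 2655, 441 and 1302 in quiescent cells, 931, 1091, 410 and 727 in irradiated cells and 1336, 1805 and 386 in activated cells, with a difference between activated and quiescent cells of -0.23 ± 0.80. On 1417355_at they were 305, 125 and 124, then 445, 163, 324 and 495, then 279, 443 and 363, with a difference of 1.01 ± 0.48 (adjusted p = 0.447 over all probe sets). The separation of activated from quiescent arrays was therefore found on 1 of the 3 Peg3 probe sets with signal, and the mean of all 5 probe sets gave a difference of 0.64. The remaining 2 read 5 on every array.

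Necdin, the product of Ndn, is a MAGE family protein that restrains division in neural precursors and lies in the region deleted in Prader-Willi syndrome. Probe set 1437853_x_at read 3269, 1430 and 4876 on quiescent arrays, 1495, 898, 2977 and 2639 on irradiated arrays and 2606, 4002 and 2185 on activated arrays. The groups overlapped, and activated and quiescent cells differed by 0.00 ± 0.59 (95% interval -1.38 to 1.38). Irradiated cells differed from quiescent cells by -0.65 ± 0.55 (adjusted p = 0.965), and activated from irradiated cells by 0.65 ± 0.55 (adjusted p = 0.678). Of the 8 Ndn probe sets, 3 stayed at 4 or 5 on all arrays and 5 read above 100 on all arrays. On 3 of those 5 (1435383_x_at, 1455792_x_at and 1435382_at) irradiated replicate 2 was the lowest array, at 535, 609 and 361, and activated replicate 2 the highest, at 4208, 4021 and 3103. None of the 5 was called in any comparison.

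Mest and Nnat encode membrane proteins of the endoplasmic reticulum and are paternally expressed. Mest, which resembles alpha/beta hydrolases and hosts a microRNA in an intron, read 147, 6 and 9 on quiescent arrays, 5, 33, 528 and 5 on irradiated arrays, and 1200, 777 and 291 on activated arrays. It was at the lower limit on 2 quiescent and 2 irradiated arrays and on no activated array. Activated arrays all exceeded quiescent arrays but overlapped the irradiated ones through irradiated replicate 3. The mean was 756 ± 455 in activated (SD, n = 3), 54.0 ± 80.6 in quiescent (SD, n = 3) and 143 ± 257 in irradiated cells (SD, n = 4).

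The log2 difference in Mest was 3.90 ± 1.41 between activated and quiescent cells (95% interval 0.60 to 7.19, adjusted p = 0.216) and 3.51 ± 1.32 between activated and irradiated cells (adjusted p = 0.215). Neither passed the test. Without irradiated replicate 3 the latter was 4.58 (adjusted p = 0.0409), so that 1 array decided the call. Quiescent replicate 1, the quiescent array with a Mest reading above 10, was the array with the high mature neuron sum. Irradiated replicates 1 to 4, with Mest at 5, 33, 528 and 5, had neuron sums of 1617, 4001, 976 and 2347. Activated replicates 1 to 3, with Mest at 1200, 777 and 291, had sums of 325, 772 and 519. The part of neuronal RNA in the Mest readings was not tested.

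Nnat encodes neuronatin, a small proteolipid of developing brain, and lies inside an intron of Blcap on the opposite strand. Its probe set read 8991, 4930 and 8498 on quiescent arrays, 4946, 10678, 9017 and 5893 on irradiated arrays and 8031, 9505 and 7310 on activated arrays. Groups overlapped fully, with means of 7473 ± 2216 (SD, n = 3), 7634 ± 2673 (SD, n = 4) and 8282 ± 1119 (SD, n = 3). The difference was 0.19 ± 0.35 between activated and quiescent cells (95% interval -0.62 to 1.00) and 0.01 ± 0.32 between irradiated and quiescent cells (95% interval -0.74 to 0.77).

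Blcap, the host gene, fell in activated cells. It read 871, 343 and 983 on quiescent arrays, 813, 620, 216 and 909 on irradiated arrays and 108, 54 and 18 on activated arrays. All activated arrays were below all others, with a log2 difference of -3.36 ± 0.71 from quiescent cells (adjusted p = 0.0343) and -3.12 ± 0.66 from irradiated cells (adjusted p = 0.0308). The Blcap call against quiescent cells was lost without quiescent replicate 1 or 4, irradiated replicate 1, 2 or 4, or activated replicate 2 or 3 (adjusted p up to 0.111), while the difference stayed between -3.82 and -2.87. The call against irradiated cells was lost without quiescent replicate 1, irradiated replicate 1, 2 or 4, or activated replicate 2 or 3 (adjusted p up to 0.0995). Oligodendrocyte and astroglial marker sums were also lower on activated arrays, and their part was not tested. Whether Nnat and Blcap differ from each other in their response was not tested.

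The promoter windows of this overlapping pair are shown because the genes share a locus while the Blcap signal fell and that of Nnat was not called. They are the GRCm38.p6 windows chr2:157559828-157560127 (plus strand, Nnat) and chr2:157566312-157566611 (minus strand, Blcap) of RefSeq, CpGs in capitals.
Nnat: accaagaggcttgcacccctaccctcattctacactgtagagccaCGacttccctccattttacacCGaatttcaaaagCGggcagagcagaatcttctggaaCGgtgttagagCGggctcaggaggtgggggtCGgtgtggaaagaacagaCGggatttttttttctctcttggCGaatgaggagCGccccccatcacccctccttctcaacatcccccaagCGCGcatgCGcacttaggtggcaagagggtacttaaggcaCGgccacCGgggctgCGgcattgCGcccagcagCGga
Blcap: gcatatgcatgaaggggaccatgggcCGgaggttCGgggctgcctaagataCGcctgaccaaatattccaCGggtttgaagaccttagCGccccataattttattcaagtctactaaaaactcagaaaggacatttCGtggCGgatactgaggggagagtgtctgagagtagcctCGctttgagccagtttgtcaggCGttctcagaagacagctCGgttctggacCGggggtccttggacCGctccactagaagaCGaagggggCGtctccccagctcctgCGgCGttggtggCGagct
Each holds 17 CpGs, more than 68.6% of all promoters. Of the 8 genes, all were in the promoter table, with 12 windows in total. Their CpG count had a median of 13 and ran from 1 to 45, against a median of 7 over all windows. The Mest windows that start at 30737800 and 30737803 overlap almost fully, with 17 CpGs each, and both were counted. The letters GGGGCCCC, a site bound by the Plagl1 protein and its own reverse complement, occurred in 1 of the 12 windows, that of Peg3 (8.33%), and in 1.08% of all windows. TATAAA, searched on both strands, occurred in 1 of the 12, a Meg3 window (8.3%), and in 13.6% of all. Such matches are a description of these letters only.

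Of the long noncoding RNAs, Meg3 is a maternally expressed transcript of the Dlk1 cluster that has been described as a growth suppressor. It has 11 probe sets, of which 2 stayed at the lower limit on all arrays and none exceeded 100 on 3 or more arrays. Over the 11 probe sets and 10 arrays, 37 of the 110 values were above 10 and 10 were above 100. Probe sets 1428764_at and 1439380_x_at were at the lower limit on 1 array only, activated replicate 1. On the other probe sets with signal, the arrays above the limit differed from probe set to probe set.

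The representative Meg3 probe set, 1452905_at, read 209, 504 and 6 on quiescent arrays, 5 on all irradiated arrays and 20, 5 and 37 on activated arrays. All irradiated arrays lay below all quiescent arrays, though by 1 unit at the lower limit for quiescent replicate 4. The difference from quiescent cells was -2.71 ± 0.97 in irradiated cells (unadjusted p = 0.0258, adjusted p = 0.965) and -2.0 ± 1.04 in activated cells (adjusted p = 0.448). Without quiescent replicate 4 both were called, at -4.03 (adjusted p = 0.0339) and -3.32 (adjusted p = 0.0119). Averaged over all 11 probe sets the differences were -0.21 and -0.30, and neither was called. The values of quiescent replicates 1, 2 and 4 stood beside mature neuron marker sums of 13831, 1433 and 537. On irradiated replicates 1 to 4, all at 5 on this probe set, the sums were 1617, 4001, 976 and 2347. On activated replicates 1 to 3 they were 325, 772 and 519. The part of neuronal RNA was not tested.

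Other Meg3 probe sets gave other orders. Probe set 1439380_x_at read 84, 42 and 55 in quiescent cells, 127, 137, 24 and 49 in irradiated cells and 9, 28 and 33 in activated cells, so that activated arrays lay below quiescent ones by -0.98 ± 0.56 (adjusted p = 0.597 over all probe sets). Probe set 1426758_s_at read 50, 5 and 110 on activated arrays and at most 6 on the others, a difference of 1.39 ± 0.56 from quiescent cells (adjusted p = 0.319). On 1428764_at the values ran from 9 to 185 with overlapping groups. With all 10 arrays no Meg3 probe set was called in any comparison. Without activated replicate 2, which read 5 there, 1426758_s_at was called against both other groups.

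H19, a maternally expressed transcript that limits growth and hosts Mir675, shares its probe set 1448194_a_at with that microRNA gene. This probe set read 60, 83 and 5 on activated arrays and 5 on all 7 other arrays. Activated replicates 1 and 2 stood above the limit, while activated replicate 3 did not, so the groups overlapped.

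**Figure D3:**
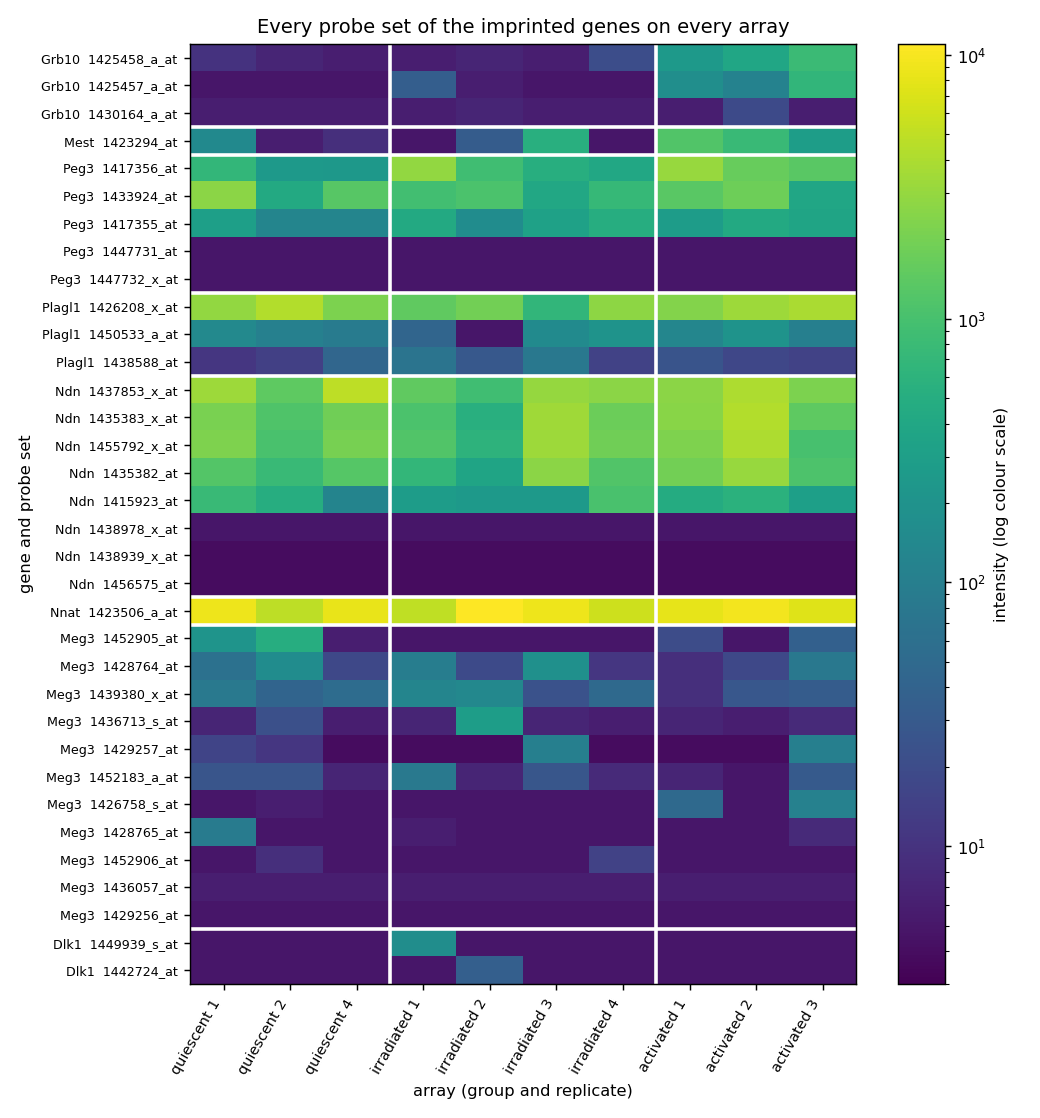
Intensity of each of the 34 probe sets of 8 imprinted genes (vertical axis, grouped by gene) on each of the 10 arrays (horizontal axis), with colour on a log scale. Dark cells are at the lower limit. Most of the 11 Meg3 probe sets show scattered readings or none, while 2 Grb10 probe sets are lit on the 3 activated arrays.

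Groups that do not overlap were also counted over genes. Of the 8 genes, 3 had all activated arrays above all quiescent arrays (Grb10, Mest and Peg3) and none the reverse, where 19.3% of all genes were separated in either direction. Irradiated and quiescent arrays were separated for 1 gene, Meg3, lower after irradiation (2.96% of all genes). That separation rests on 5 on the irradiated arrays against 6 on quiescent replicate 4, both background. Activated and irradiated arrays were separated for 1 gene, Grb10 (16.2% of all genes).

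The imprinted genes act together with a growth axis built on Igf2, its clearance receptor Igf2r and the cell cycle inhibitor Cdkn1c, all of which are imprinted themselves. Of the 8 network partners, all were measured. The partners gave 1 fall (Gatm) and no rise between activated and quiescent cells where 6.02% of all genes were called, and no call after irradiation or between activated and irradiated cells. Their median log2 differences were 0.01, 0.34 and -0.06 in the 3 comparisons. Igf2 read 399, 7 and 210 on quiescent arrays, 405, 117, 498 and 10 on irradiated arrays and 7, 7 and 121 on activated arrays. Its groups overlapped, with a difference of -1.63 ± 1.52 between activated and quiescent cells (adjusted p = 0.746).

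Igf2r read 39, 28 and 12, then 27, 18, 32 and 82, then 109, 56 and 136 in quiescent, irradiated and activated cells. Its activated arrays all exceeded the quiescent ones, without passing the test (1.45 ± 0.47, adjusted p = 0.157). Cdkn1c was above 10 on 2 arrays, at 73 on irradiated replicate 1 and 454 on activated replicate 3. Gatm, which makes the precursor of creatine, fell from 370, 1499 and 608 on quiescent arrays to 15, 47 and 44 on activated arrays, by a log2 difference of -3.87 ± 0.81 (adjusted p = 0.0339). The Gatm call was lost without any 1 of the 3 quiescent or 3 activated replicates, or without irradiated replicate 2 (adjusted p up to 0.109). On irradiated arrays Gatm read 132, 230, 747 and 850, all above the activated arrays, and the difference of -3.01 ± 0.76 did not pass the test (adjusted p = 0.0618). Sgce, a sarcoglycan gene named here after its values were seen, read 1945, 225, 706 and 913 on irradiated arrays and 192, 49 and 36 on activated arrays, also without overlap and without passing (-3.08 ± 0.75, adjusted p = 0.053). Astroglial and oligodendrocyte sums were lower on the activated arrays here too, and their part was not tested.

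Of 16 genes of the wider growth factor axis, which covers insulin, IGF, Notch and FGF signalling, 1 fell and none rose in activated against quiescent cells, which is close to the 6.02% called over all genes. It was Fgfr1, a receptor for fibroblast growth factors, at 3028, 1401 and 1366 on quiescent arrays, 3270, 1348, 2494 and 2784 on irradiated arrays and 557, 380 and 312 on activated arrays. Fgfr1 was lower on every activated array, by -2.11 ± 0.43 against quiescent cells (adjusted p = 0.0315) and -2.49 ± 0.41 against irradiated cells (adjusted p = 0.0103). The former call was lost without any 1 quiescent replicate, irradiated replicate 3 or 4, or activated replicate 2 or 3 (adjusted p up to 0.103). None of the 16 was called after irradiation, and the median log2 differences of the list were -0.20, 0.05 and -0.31. The astroglial marker sums were lower on the same arrays, and their part in the Fgfr1 result was not tested.

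Of 54 other imprinted genes, 44 were measured and 12 of these stayed at the lower limit on all arrays. In activated cells 2 fell against quiescent cells, Blcap and Cd81, and none rose, and the same 2 fell against irradiated cells. Over all genes, 6.02% and 7.10% were called in these comparisons, so a count of 2 in 44 is no more than the background. None was called after irradiation. The median log2 difference of the list was 0.0 in each comparison, as over all genes.

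Cd81, a tetraspanin of the cell surface that is imprinted in the placenta, read 15164, 14406 and 14969 on quiescent arrays, 15914, 14988, 15290 and 13907 on irradiated arrays and 6471, 4443 and 4749 on activated arrays. The replicates of a group lay close together, and the difference of activated from quiescent cells was -1.52 ± 0.13 (adjusted p = 6.25e-04). Cd81 was called whichever array was left out. The astroglial and oligodendrocyte sums were lower on the same arrays, and their part was not tested.

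Factors that copy or guard methylation marks at imprinted genes were counted as a further list. Of 11 measured, 3 rose in activated cells against both other groups (Dnmt1, Uhrf1 and Hells), none fell and none was called after irradiation. Over all genes, 6.02% and 7.10% were called in the comparisons with activated cells. The median log2 differences were 1.04, 0.12 and 1.91. Uhrf1, which brings the maintenance methyltransferase to replicating DNA, read 5 on all quiescent arrays, 8, 8, 7 and 5 on irradiated arrays and 1686, 1947 and 872 on activated arrays. It differed by 6.10 ± 0.26 between activated and quiescent cells (adjusted p = 1.71e-05). Hells, a chromatin remodeller needed for DNA methylation, read 5 on all 7 quiescent and irradiated arrays and 70, 147 and 186 on activated arrays, a difference of 2.75 ± 0.27 (adjusted p = 0.00113).

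Dnmt1, the maintenance methyltransferase itself, read 42, 404 and 31 on quiescent arrays, 5, 5, 22 and 116 on irradiated arrays and 1920, 3134 and 3832 on activated arrays. Its activated arrays exceeded all others, by 4.77 ± 1.01 against quiescent cells (adjusted p = 0.0348) and 6.21 ± 0.94 against irradiated cells (adjusted p = 0.00753). The call against quiescent cells was lost without quiescent replicate 1 or 4, irradiated replicate 1, 2 or 3, or any 1 activated replicate (adjusted p up to 0.114), while the difference stayed between 4.20 and 5.78. Mki67, the marker of dividing cells, was high on the same arrays, at 9566 to 11152 against 9 to 161 on the others, and its part in these rises was not tested.

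**Figure D4:**
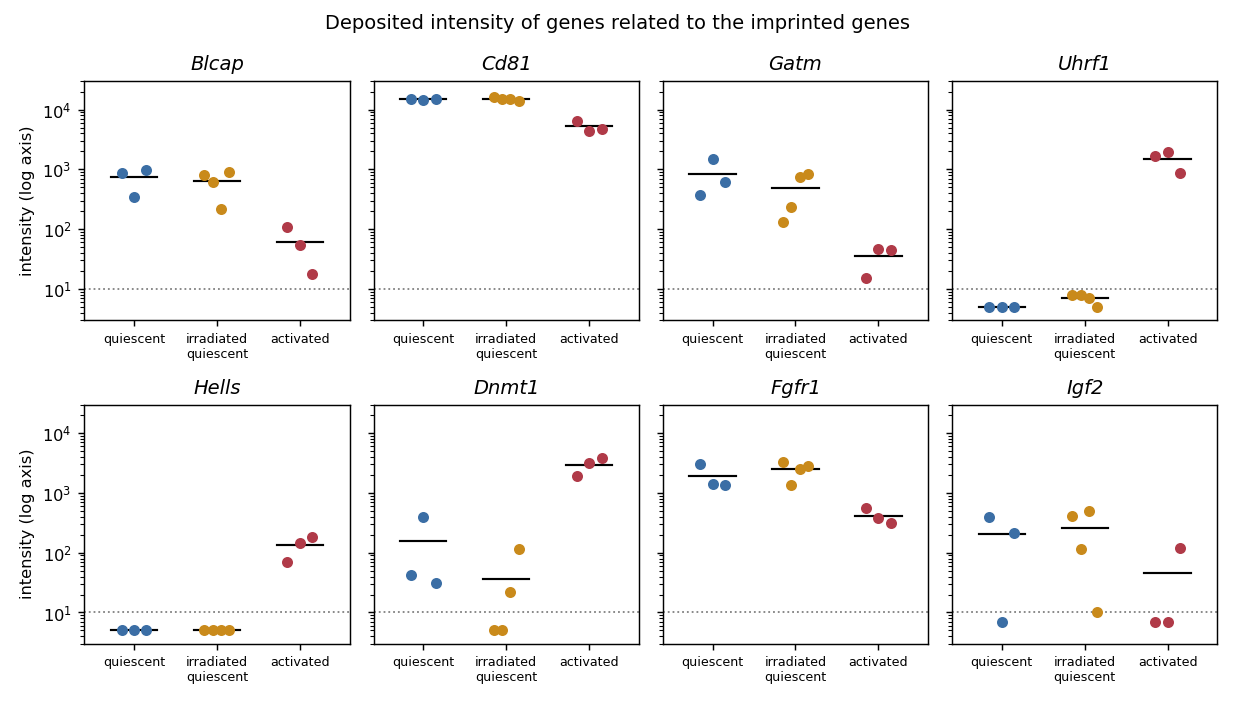
Deposited intensity on each of the 10 arrays (points, log axis) for genes related to the imprinted genes, with group means as black bars and the lower limit of 10 as a dotted line. Blcap, Cd81, Gatm and Fgfr1 are lower and Uhrf1, Hells and Dnmt1 higher on every activated array than on the quiescent and irradiated arrays, whereas the groups overlap for Igf2.

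Genes whose pattern over the 10 arrays was most like that of an imprinted gene were ranked by Pearson correlation of log2(intensity + 16) among 7249 genes, for the 6 imprinted genes above 100 on at least 3 arrays. These are descriptions, since the arrays share their groups, amplification and cell mixture. Grb10 was most like Dlgap5, a spindle protein of dividing cells (r = 0.994), and Elavl4, an RNA-binding protein of neurons (r = 0.993). Dlgap5 read 4 or 5 on all quiescent and irradiated arrays and 181, 301 and 543 on activated arrays, and Elavl4 read 5 on the former and 357, 479 and 1433 on the latter. Grb10, Dlgap5 and Elavl4 each passed the filter of 100 only through the activated arrays. Their high correlations therefore largely restate the separation of activated from other arrays. Mest was most like Gdap1 (r = 0.957) and Ubqln4 (0.939), Nnat like C1galt1 (0.959) and Tnrc6c (0.919), and Peg3 like Phf2 and Pole3 (both 0.936). Ndn was most like Nampt (0.920) and Jarid2 (0.901), and Plagl1 like Lsm14a (0.887) and Sde2 (0.882).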

How the data were processed

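Groups follow the cell state in each array's label. The columns of quiescent replicate 3 and activated replicate 4 were empty, so these samples were not analysed here and 10 arrays remained. Per the labels' protocols, cDNA was amplified with the NuGEN Ovation Pico WTA System before hybridisation. The authors' deposited values are 1 linear intensity per probe set and array; how they were computed from the scans is not given in the sources used here. Of 45037 probe sets, 34945 had 1 gene symbol, 932 several and 9160 none. Each gene took its probe set of highest mean.

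The fit used log2(intensity + 16), without normalization beyond the deposited values, in limma 3.58.1 (R 4.3.3): a mean per group over all 10 arrays (7 residual and 0.422 prior degrees of freedom), eBayes, two-sided, Benjamini-Hochberg over all genes or probe sets, called under 0.05. The planned design assumed 12 arrays. The fit was tested on simulated data, with changes added only to genes of higher mean signal. Genes that rise from the lower limit, such as Grb10, were not covered by that test. The genes and lists were chosen with earlier results of these data known. Named genes were all 9 imprinted genes, the called genes of each list, and Igf2, Igf2r and Cdkn1c. Alternatives are given in the closing section. Promoter windows come from RefSeq (GRCm38.p6).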

Additional observations from a re-analysis of the deposited data

Results flagged for a closer look

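In the group of 4 irradiated arrays, 23 probe sets had an array above 10 and were tested. Of these, 8 had 1 array far from the other 3 by Dixon's criterion on the log2(intensity + 16) scale. For Dlk1 these were 170 on 1449939_s_at (replicate 1) and 36 on 1442724_at (replicate 2), with 5 on the other irradiated arrays in both cases. For Grb10 they were 21 on 1425458_a_at (replicate 4) and 35 on 1425457_a_at (replicate 1). For Meg3 they were 287 on 1436713_s_at (replicate 2), 103 on 1429257_at (replicate 3) and 15 on 1452906_at (replicate 4). In these 7 the other irradiated arrays were at or below the lower limit of 10. Values there hardly vary, so the criterion flags almost any single array above the limit. For Ndn it was 1051 on 1415923_at (replicate 4), where the other irradiated arrays read 245 to 282. Each of the 4 irradiated replicates was the far array at least once.

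The probe set shared by H19 and Mir675, which enters no comparison, read up to 83 on activated arrays and 5 on all quiescent arrays.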

How the results depend on the processing

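The Grb10 gene call in activated cells held under all alternatives run. Its log2 difference from quiescent cells lay between 2.68 and 5.22 (adjusted p 5.95e-04 to 0.0311) under other settings and between 3.78 and 4.61 (6.32e-04 to 0.00639) when 1 array was left out. With 1 array left out, the genes called numbered 1 to 2, 0 to 1 and 1 to 2 in activated against quiescent, irradiated against quiescent and activated against irradiated cells, and the probe sets 1 to 3, 0 to 1 and 1 to 3. In the same order the network partners numbered 0 to 1, 0 and 0 to 1, the other imprinted genes 1 to 3, 0 and 1 to 2, the maintenance factors 2 to 3, 0 and 3 to 5, and the growth axis 0 to 1, 0 and 1 to 2. With a pseudocount of 4 in place of 16, Dnmt1 lost its call between activated and quiescent cells (adjusted p = 0.065). With 64, 1 probe set and 0 partners were called between activated and quiescent cells. Between activated and irradiated cells, quantile normalization called 1 partner (Sgce), and leaving out the dimmest 50% of genes called 2 partners (Gatm and Sgce) and 2 growth axis genes (Fgf2 and Fgfr1).

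Same-numbered arrays were no more alike than others: their deviations from the group means correlated at -0.031 to 0.024 (8 pairs), and those of others at -0.036 to 0.035 (25 pairs). Many genes in this comparison lay at the lower limit, so it cannot tell whether same-numbered samples were handled together. With the replicate block 1, 0 and 1 of the imprinted genes were called, and the calls of Gatm and Fgfr1 (activated against quiescent) and of Dnmt1 (both comparisons) were lost at adjusted p = 0.0939, 0.0687, 0.196 and 0.0696, with differences (-3.93, -2.08, 4.82 and 6.31) close to those without the block.

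Of the single-gene differences, 8 changed sign under other settings, all small and uncalled: Plagl1 in activated against quiescent cells (-0.06, quantile), Meg3 in activated against irradiated cells (-0.09, mean of probe sets), and in irradiated against quiescent cells Mest (-0.04, block), Nnat (-0.02, quantile, and -0.01, block), Blcap (0.19, block), Cd81 (-0.01, quantile) and Igf2 (-0.27, block). Leaving out 1 array gave ranges across 0 of -0.16 to 0.32 (Plagl1), -0.49 to 0.39 (Ndn) and -0.09 to 0.35 (Nnat) in activated against quiescent cells, -0.01 to 0.36 (Nnat) and -0.44 to 1.80 (Cdkn1c) in activated against irradiated cells, and -0.08 to 0.17 (Grb10), -0.68 to 1.32 (Mest), -0.26 to 0.20 (Nnat), -0.70 to 0.21 (Blcap), -0.01 to 0.05 (Cd81) and -0.89 to 1.25 (Igf2) in irradiated against quiescent cells. Fitted on only the 2 groups compared, Blcap (0.097), Dnmt1 (0.105), Fgfr1 (0.0945) and Gatm (0.0609) were not called between activated and quiescent cells, nor Blcap (0.0701) between activated and irradiated cells. That fit has fewer arrays and its own estimate of the spread, and the cause of the lost calls was not tested. Values near the lower limit say little about levels.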
